A study of Mus musculus with 3 samples.

Results

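The 39 genes described here make up a cell-cycle module. Of these, 17 are grouped as S-phase genes, after the phase when DNA is copied, and 22 as mitotic genes. The grouping is loose: the MCM genes, Cdc6 and Cdt1 license origins before S phase, and Ccna2 acts in late S phase and G2. The 39 genes were taken by name from the gene lists of the libraries, where all 39 were present among 24357 genes detected in any library. They were measured by droplet single-cell RNA sequencing of knee synovium from arthritic mice, wild type C57BL/6 females in which collagen and then antibodies had been given (C&AIA). The mice were 8 weeks old. To induce arthritis they received 100 µg of type II collagen on day 0, 1 mg of a monoclonal antibody cocktail against that collagen on day 21, and lipopolysaccharide on day 22, and inflamed synovium was taken at the effector phase. There were 3 libraries, replicates 1, 2 and 3, each from the pooled tissue of 2 mice. All libraries belong to the same arthritic group, so no untreated or healthy value stands beside any result, and every comparison below is between cell classes of the same joints. Pooling leaves the difference between the 2 mice of a library unmeasured.

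A cell that divides first licenses its replication origins with the MCM helicase, then copies its DNA in S phase and separates the copies in mitosis. E2F transcription factors, released from the retinoblastoma protein by cyclin-dependent kinases, switch on the S-phase genes. The mitotic genes come on later under the MuvB and B-MYB complex, and the anaphase-promoting complex then destroys many of their proteins. In synovium, mature neutrophils have left the cycle, whereas lining fibroblasts, resident macrophages and endothelial cells are able to divide, and an enlarged synovial lining is a feature of arthritic joints.

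The promoters of S-phase and mitotic members carry different letters. RefSeq promoter windows on GRCm38.p6, from 250 bases before to 50 bases after each gene's start, were available for 33 of the 39 genes, 14 S-phase and 19 mitotic (the other 6 are Mcm4, Gins2, Ccne2, Aurkb, Ccna2 and Tpx2). Letters of the E2F site (TTTGGCGC, TTTCCCGC, TTTGCCGC or TTTCGCGC on either strand) were in 8 of 14 S-phase windows (57.1%), in 1 of 19 mitotic windows (5.26%, Cdk1) and in 2.26% of all 32851 windows searched. The windows of 1 chromosome were left out of the search, so all windows here means those searched. Letters of the cell cycle homology region, or CHR (TTTGAA or TTCGAA on either strand), were in 2 of 14 S-phase windows (14.3%), in 14 of 19 mitotic windows (73.7%) and in 19.2% of all windows. CCAAT letters on either strand were in 9 of 14, in 16 of 19 and in 37.4% of all windows, and CHR and CCAAT letters stood together in 14 of 19 mitotic windows against 7.52% of all windows. The counts out of 14 S-phase and 19 mitotic windows are per gene, a gene holding letters if any of its windows did. The shares of all windows are per window, and Mcm7 and Uhrf1 had more than 1 window. A match describes letters and is neither a bound site nor a cause of any level below. The 160 bases before the start are printed for 8 genes on which the results turn: 3 S-phase genes with E2F letters, 3 mitotic genes with CHR and CCAAT letters, and 2 genes, Kif23 and Pcna, whose levels departed from those of the other members in several classes. Sequences run 5′ to 3′ on the gene's strand, and capitals mark E2F, CHR or CCAAT letters, in the reverse complement where they lie on the other strand; overlapping E2F matches are run together.
Mcm5 (chr8:75109349-75109508, plus strand): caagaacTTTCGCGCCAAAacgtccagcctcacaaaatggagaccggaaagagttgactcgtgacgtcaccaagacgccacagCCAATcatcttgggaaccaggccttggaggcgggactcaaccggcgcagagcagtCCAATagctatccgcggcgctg
Mcm6 (chr1:128359706-128359865, minus strand): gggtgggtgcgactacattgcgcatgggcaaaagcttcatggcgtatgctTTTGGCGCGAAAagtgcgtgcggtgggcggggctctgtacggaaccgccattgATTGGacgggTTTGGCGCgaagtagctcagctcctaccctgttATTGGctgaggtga
Hells (chr19:38930830-38930989, plus strand): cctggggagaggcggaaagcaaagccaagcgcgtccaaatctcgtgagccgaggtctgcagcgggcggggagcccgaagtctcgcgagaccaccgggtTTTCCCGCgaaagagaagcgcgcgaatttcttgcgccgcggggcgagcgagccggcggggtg
Cdc20 (chr4:118437344-118437503, minus strand): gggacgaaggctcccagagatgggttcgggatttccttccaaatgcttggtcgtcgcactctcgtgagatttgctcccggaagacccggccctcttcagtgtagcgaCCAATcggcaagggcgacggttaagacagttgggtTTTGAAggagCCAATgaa
Kif11 (chr19:37376222-37376381, plus strand): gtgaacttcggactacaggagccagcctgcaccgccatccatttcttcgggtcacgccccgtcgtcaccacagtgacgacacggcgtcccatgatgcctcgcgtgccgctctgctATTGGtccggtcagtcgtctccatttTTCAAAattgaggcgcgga
Ube2c (chr2:164769769-164769928, plus strand): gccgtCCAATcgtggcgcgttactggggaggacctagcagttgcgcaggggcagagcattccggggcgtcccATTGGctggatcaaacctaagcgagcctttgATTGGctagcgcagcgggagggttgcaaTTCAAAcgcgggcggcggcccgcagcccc
Kif23 (chr9:61946800-61946959, minus strand): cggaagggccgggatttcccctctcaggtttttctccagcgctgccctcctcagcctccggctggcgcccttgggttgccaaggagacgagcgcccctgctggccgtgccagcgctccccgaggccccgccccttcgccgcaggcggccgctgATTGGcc
Pcna (chr2:132253181-132253340, minus strand): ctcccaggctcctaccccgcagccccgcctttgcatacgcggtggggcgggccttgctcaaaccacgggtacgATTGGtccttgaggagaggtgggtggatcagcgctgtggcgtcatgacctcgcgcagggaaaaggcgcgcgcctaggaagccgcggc

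Mcm6, a helicase subunit, holds E2F letters at 2 places in this stretch, and Hells, a chromatin remodeller, at 1 place, without CCAAT letters. In Cdc20 (the activator of the anaphase-promoting complex), Kif11 (a spindle motor) and Ube2c (the complex's ubiquitin-conjugating enzyme), CCAAT letters stand upstream of the CHR letters, and in Cdc20 also downstream. Kif23, a motor of the central spindle, shows CCAAT letters here, and its CHR letters lie after the start, outside the printed stretch. Pcna, the sliding clamp of DNA polymerase, shows CCAAT letters alone.

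The libraries held 11939, 11602 and 15263 cell barcodes, while the labels state 11111, 10668 and 14363 filtered cells. Mean UMIs (unique molecular identifiers, 1 per captured RNA molecule) per barcode were 7608 to 8600 in the files and 5291 to 5433 in the labels, and the filter behind the labels' values is not given in the sources used here. Totals were 99782608 to 116125707 UMIs, and 36875 cells were kept. Barcode names are serial labels, of which 2602 to 2866 recur between any pair of libraries and 693 in all 3, so they cannot show shared cells. Cells were placed in classes by marker genes, none of which is a cell-cycle member, and a class is named X-like. The classes showed their own markers at 10 or more UMIs per 1000000 UMIs (CPM) for every marker of most lists, with 5 of 6 in osteoclast-like, 5 of 6 in sublining fibroblast-like and 7 of 8 in tenocyte-like cells. The same markers placed the cells, so these levels follow from the gate and are no separate check of what the classes are. Markers of other lists passed this level too, such as all 9 neutrophil markers in T cell-like cells. The class gates left 3556 cells unassigned. Over all cells of a class, median depth was lowest in neutrophil-like cells at 1813 UMIs, against 6715 in monocyte/macrophage-like, 16441 in osteoclast-like and 17784 in lining fibroblast-like cells, and this gap in depth lies beside every contrast that involves neutrophil-like cells. Values between classes are raw UMIs of a gene summed over the cells of a class in a library, as CPM. They can be moved by the share of dividing cells or by the RNA per dividing cell, and these cannot be told apart in a sum.

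**Figure D1:**
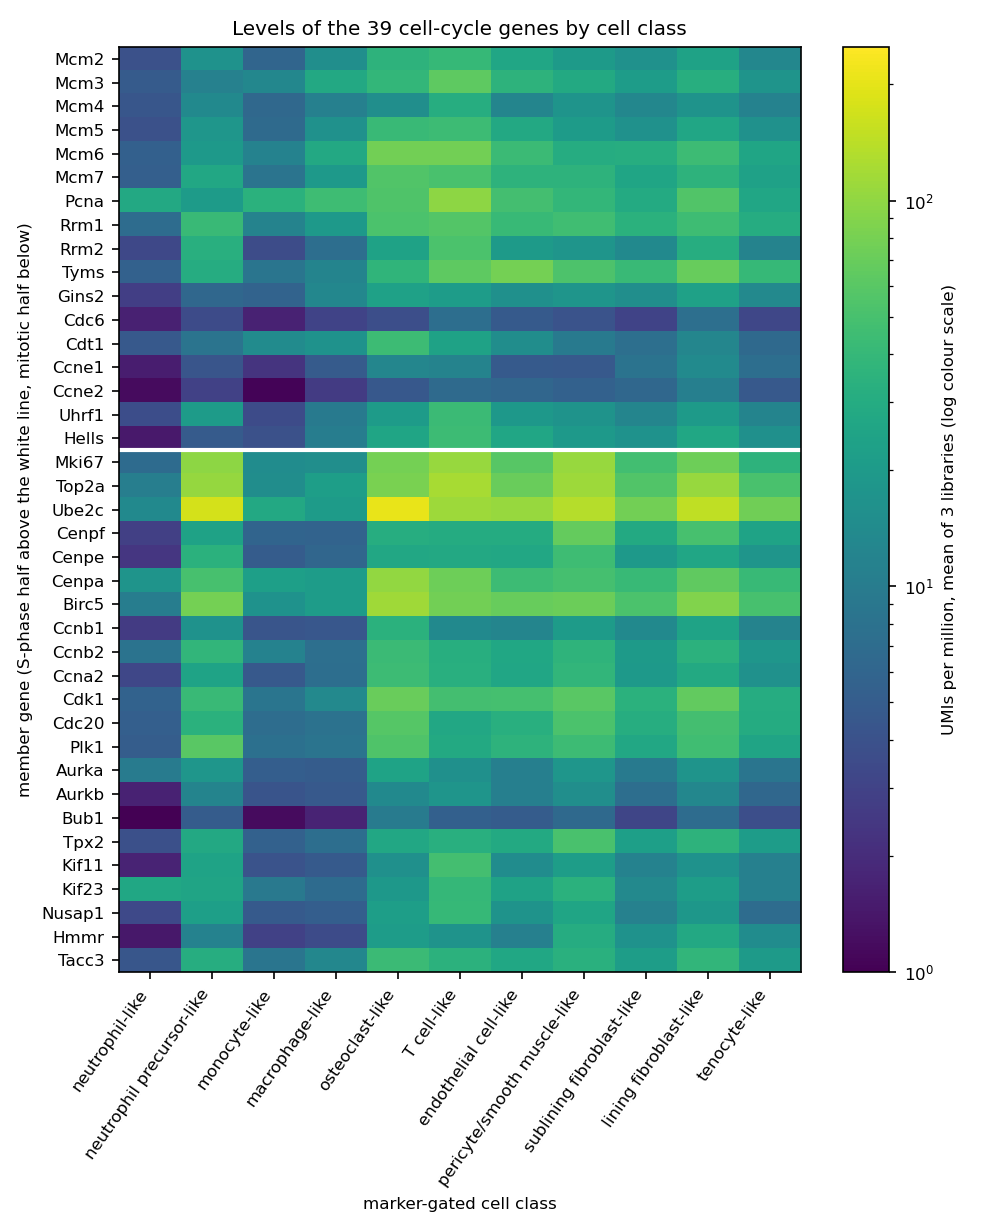
Mean level of each of the 39 genes (rows) in each marker-gated class (columns), in CPM over 3 libraries on a log colour scale, with the S-phase members above the white line. The neutrophil-like column is dark for most genes but not for Pcna and Kif23, and the osteoclast-like and T cell-like columns are bright.

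Levels of the module differed widely between classes. Among classes with at least 20 cells in every library, 33 of the 39 genes were lowest in neutrophil-like cells, and the highest level was 4.75 to 30.2 times the lowest. The 39 genes together summed to 237 ± 5.59 CPM in neutrophil-like cells (SD, n = 3 libraries), 421 ± 68.4 in monocyte/macrophage-like cells and 1057 ± 88.5 in fibroblast-like cells. Sums were 1201 ± 197 CPM in endothelial cell-like, 1465 ± 282 in pericyte/smooth muscle-like, 1494 ± 186 in lining fibroblast-like, 1715 ± 432 in osteoclast-like and 1718 ± 263 in T cell-like cells. From fibroblast-like cells upward the libraries of neighbouring classes overlapped, while neutrophil-like and monocyte/macrophage-like cells lay apart from these and from each other. Free RNA from broken cells can add to every droplet. Its profile was not measured and was assumed to be that of the summed kept cells of the library. Under this assumption, the smaller of the shares that neutrophil S100a8 and S100a9 or collagen UMIs allow limits free RNA to 18.1 to 20.1% of the UMIs in neutrophil-like cells. There the members stood at 25.9 to 28.1% of their whole-library level. In monocyte/macrophage-like cells the limit was 14.3 to 16.2% and the members stood at 40.9 to 54.1%. The neutrophil-like sum thus lies close to this limit.

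Among classes with at least 20 cells in every library, T cell-like cells held the highest level of 8 of 17 S-phase members. Osteoclast-like cells held that of 10 of 22 mitotic members. Granulocyte/monocyte progenitor-like cells, with 15, 59 and 6 cells, were left out of this ranking. In them the 39 genes summed to 4071, 3717 and 1815 CPM. NK cell-like cells held the highest level of 8 mitotic members and erythroid-like cells that of 5 S-phase members, but these classes had 101 and 141 cells and wide spreads between libraries. Mcm3, a helicase subunit, was at 63.2 ± 7.89 CPM in T cell-like cells and at 38.5 ± 8.40 in osteoclast-like cells, the next class. Hells was at 44.0 ± 10.1 CPM in T cell-like and 26.5 ± 3.97 in endothelial cell-like cells, and Uhrf1, which helps copy DNA methylation, at 42.9 ± 3.76 in T cell-like and 20.7 ± 4.88 in neutrophil precursor-like cells. For Mcm3, Mcm4, Uhrf1 and Hells the T cell-like libraries lay above all libraries of the next class. For the other 35 members the 2 highest classes overlapped. The share of all genes with such a gap was not counted. Ube2c reached 209 ± 43.0 CPM in osteoclast-like cells, Birc5 (survivin, of the chromosomal passenger complex) 114 ± 31.7 and Cenpa (the centromeric histone) 102 ± 31.1 CPM. Cdk1, the mitotic kinase, was at 70.7 ± 18.5 CPM there. Tyms, which makes thymidylate, was highest in endothelial cell-like cells at 78.6 ± 12.0 CPM, and the licensing factor Cdt1 in osteoclast-like cells at 44.3 ± 11.7.

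Pcna and Kif23 did not share the low neutrophil-like level of the other members. Pcna was at 30.9, 25.9 and 26.7 CPM in neutrophil-like cells of replicates 1 to 3, beside 40.8, 29.7 and 32.6 in fibroblast-like cells. Kif23 was at 30.1, 26.2 and 24.3 CPM in neutrophil-like cells, above the 16.2, 14.7 and 16.4 of fibroblast-like cells and the 7.32, 9.80 and 7.39 of monocyte/macrophage-like cells. Kif23 was thus higher in neutrophil-like cells than in fibroblast-like cells in every library, with no overlap. Pcna was lower in neutrophil-like than in fibroblast-like cells of each library, although the libraries overlapped. Aurka, the spindle-pole kinase, was lowest in monocyte/macrophage-like cells at 5.18 ± 0.309 CPM, and Cenpa, Ccnb2, Cdc20, Kif23 and Pcna were lowest in adipocyte-like cells, a class of 123 cells.

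The balance of the module was taken as the summed UMIs of the 17 S-phase genes over those of the 22 mitotic genes, compared between classes and never read as a ratio of cells in each phase. Macrophage-like cells had the highest ratio among classes of 500 or more cells, 1.46, 1.10 and 1.14 in replicates 1 to 3 (1.23 ± 0.20). Monocyte-like cells of the same joints were at 0.839, 0.558 and 0.835 (0.744 ± 0.161), below the macrophage-like value in each library and with no overlap. Fibroblast-like cells were at 0.549, 0.481 and 0.471 (0.501 ± 0.0425), below both. T cell-like cells were at 0.753 ± 0.0709, endothelial cell-like at 0.625 ± 0.0806, osteoclast-like at 0.508 ± 0.177 and pericyte/smooth muscle-like at 0.361 ± 0.0100. Neutrophil precursor-like cells, with 459 cells in all, were at 0.340, 0.251 and 0.322 (0.305 ± 0.0472), the lowest mean among classes with at least 20 cells in every library, although NK cell-like cells reached 0.218 in replicate 1. This order turned with doublets kept, where the precursor ratio was 0.399 and the pericyte/smooth muscle-like ratio 0.375. With free RNA of the assumed profile taken off at its upper limit, an alternative added after seeing the data, the macrophage-like ratio was 1.73 ± 0.399 and the monocyte-like ratio 0.899 ± 0.290. With each cell thinned to 1000 UMIs the macrophage-like ratios were 1.37, 1.06 and 1.06 and the monocyte-like ratios 1.07, 0.811 and 1.05 (means 1.16 and 0.976). The thinned libraries of the 2 classes thus overlapped, and in replicate 3 the ratios were nearly equal.

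**Figure D2:**
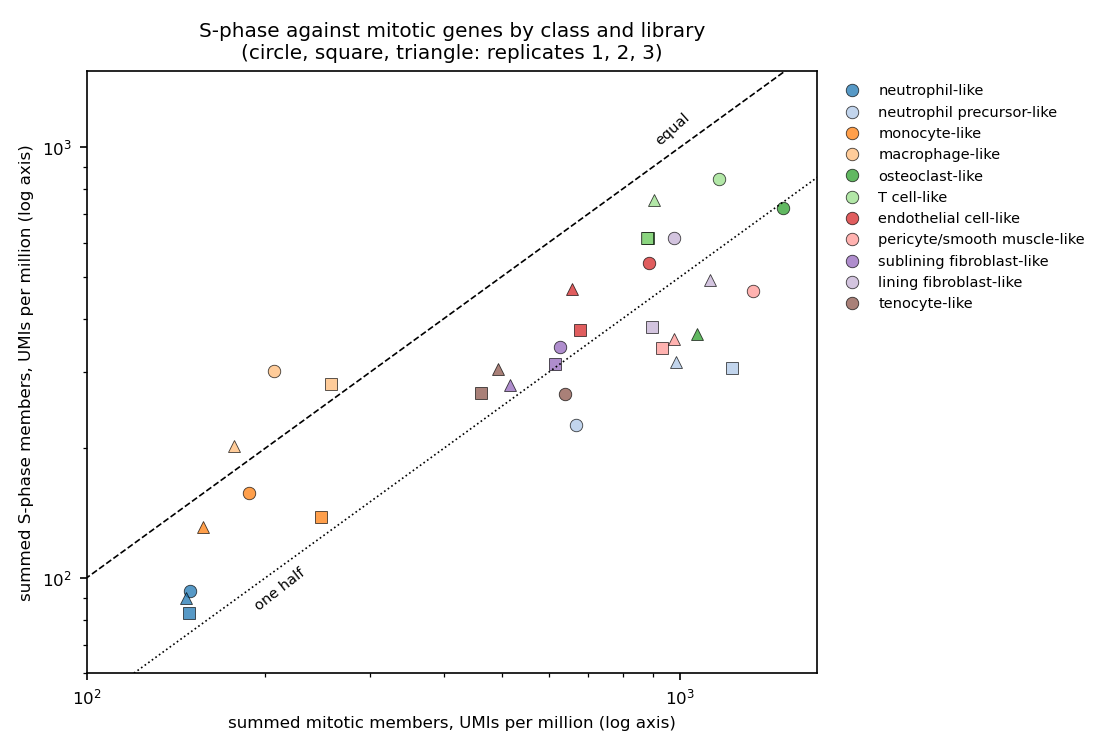
Summed S-phase members against summed mitotic members, both in CPM on log axes, 1 point per class and library. The dashed line marks equal sums and the dotted line a ratio of 0.5. The 3 macrophage-like points lie above the dashed line, and the neutrophil precursor-like points lie below the dotted line.

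Macrophage-like cells, which express C1q genes, were set against monocyte-like cells, which express Ly6c2 and Ccr2, to ask how the module differs within the phagocytes of the joint. S-phase genes were higher in macrophage-like cells and the mitotic genes were not called. Calls needed a log2 fold change of 1 or more in size and p under 0.05 after Benjamini-Hochberg adjustment in edgeR's quasi-likelihood test, with library as a block. Of 17 S-phase members 11 were called higher (median log2 fold change 1.17) and 0 lower, and of 22 mitotic members 0 were called in either direction (median 0.22), by edgeR or by DESeq2. At an unadjusted edgeR p under 0.05 there were 17 S-phase and 9 mitotic members. Among all genes tested 7.63% were called, 4.28% higher and 3.35% lower, with a median of 0.02. The difference between S-phase and mitotic members was not itself tested. The p-values, here and below, rest on UMI sums from 3 libraries of pooled mice and on a dispersion estimated with information shared across genes. They do not measure a gene's spread between the 3 libraries alone, nor that between single mice.

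Licensing genes were among the called members. Mcm2, a helicase subunit, was at 20.9, 15.3 and 10.2 CPM in macrophage-like cells and 6.32, 5.83 and 5.82 in monocyte-like cells of replicates 1 to 3. Every macrophage-like library lay above every monocyte-like one, with replicate 3 the lowest of the macrophage-like libraries. The log2 fold change was 1.39 ± 0.15 (SE, edgeR adjusted p = 5.24e-06). Mcm6 was at 34.2, 29.9 and 20.6 CPM against 13.1, 11.8 and 9.55, again without overlap (1.33 ± 0.09, edgeR adjusted p = 7.86e-08). Mcm3, Mcm5 and Mcm7 rose by log2 1.17 to 1.31, and Gins2, of the GINS complex that joins MCM in the active helicase, by 1.17. Mcm4 was 0.83 higher and Cdc6, which loads MCM, 0.92, both under the size threshold. Cdt1, Cdc6's partner in loading, stood at 17.4, 16.9 and 15.8 CPM against 15.2, 13.6 and 14.3, a log2 difference of 0.26 ± 0.10.

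Genes of nucleotide supply and chromatin copying were mixed. Uhrf1 (log2 1.47 ± 0.16) and Hells (1.43 ± 0.15) were called higher, as were the E-type cyclins Ccne1 (1.07) and Ccne2 (1.31), which start S phase with Cdk2, both from low levels. Rrm2, the regulated subunit of ribonucleotide reductase, was called at 1.02, while its partner Rrm1 (0.75) and Tyms (0.51) were not. Pcna was at 52.0, 46.4 and 36.4 CPM in macrophage-like and 38.2, 31.9 and 31.2 in monocyte-like cells. It was higher in macrophage-like cells of each library, although the libraries of the classes overlapped (log2 0.45).

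Mitotic members differed less in size in the same contrast. Mki67, the proliferation antigen, was at 15.3, 20.04 and 10.9 CPM in macrophage-like cells and 14.1, 17.9 and 12.2 in monocyte-like cells. The libraries interleave (log2 0.09 ± 0.10, edgeR adjusted p = 0.506). Ube2c was at 19.4, 25.1 and 17.5 CPM against 25.7, 36.7 and 22.0, lower in macrophage-like cells of each library (-0.38 ± 0.09), and Ccnb2, a B-type cyclin, at 7.14, 8.71 and 6.91 against 8.79, 14.2 and 11.3 (-0.53 ± 0.13). Neither reached the size threshold. At the other end stood Cdk1 (0.73), Ccna2, the A-type cyclin of late S phase and G2 (0.70), and Tacc3, a spindle protein (0.66). With every cell thinned to 1000 UMIs 6 members were called, Mcm3, Mcm6, Mcm7, Cdk1 and Tacc3 higher and Ccnb2 lower, with 19 members left after the filter on low counts. Summed neutrophil markers were 2677 to 5016 CPM in macrophage-like and 3013 to 5649 in monocyte-like cells, and summed fibroblast markers 3787 to 4354 and 3604 to 3924. Other marker lists moved with the contrast in every library. Summed neutrophil precursor markers were 295, 699.7 and 228 CPM in macrophage-like and 960.3, 1497 and 886 in monocyte-like cells, most of it Chil3 in monocyte-like cells (909 CPM on average). Summed granulocyte/monocyte progenitor markers were 7.54, 37.8 and 4.95 CPM against 37.0, 75.8 and 24.6. Summed megakaryocyte/platelet markers were 926, 1026 and 1323 CPM against 65.3, 30.2 and 128, with 1 of the 4 genes, Pf4, at 10 CPM or more. Their part in the result was not tested.

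Further cell-cycle lists were counted in the same way. Of further replication genes 11 of 33 tested were higher. In each further list, here and below, the gene named is that with the largest change among called genes at 10 CPM or more in the higher class. For replication it was Tk1, thymidine kinase (17.7, 21.3 and 11.7 CPM against 5.04, 3.66 and 4.72, log2 1.90). Of 44 further mitotic genes 1 was called, higher. Ccnd1, the cyclin that relays growth signals in G1, was at 90.8, 101 and 60.5 CPM against 25.8, 20.5 and 24.1 (log2 1.85 ± 0.11), while Ccnd3 (-1.01) and E2f2 (-1.47), a member of the E2F family, were lower. Of 14 tested inhibitors and arrest genes, Cdkn2d, an inhibitor of CDK4 and CDK6, was called lower (-1.02). Lmnb1, lamin B1, was also lower in macrophage-like cells (-1.04).

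**Figure D3:**
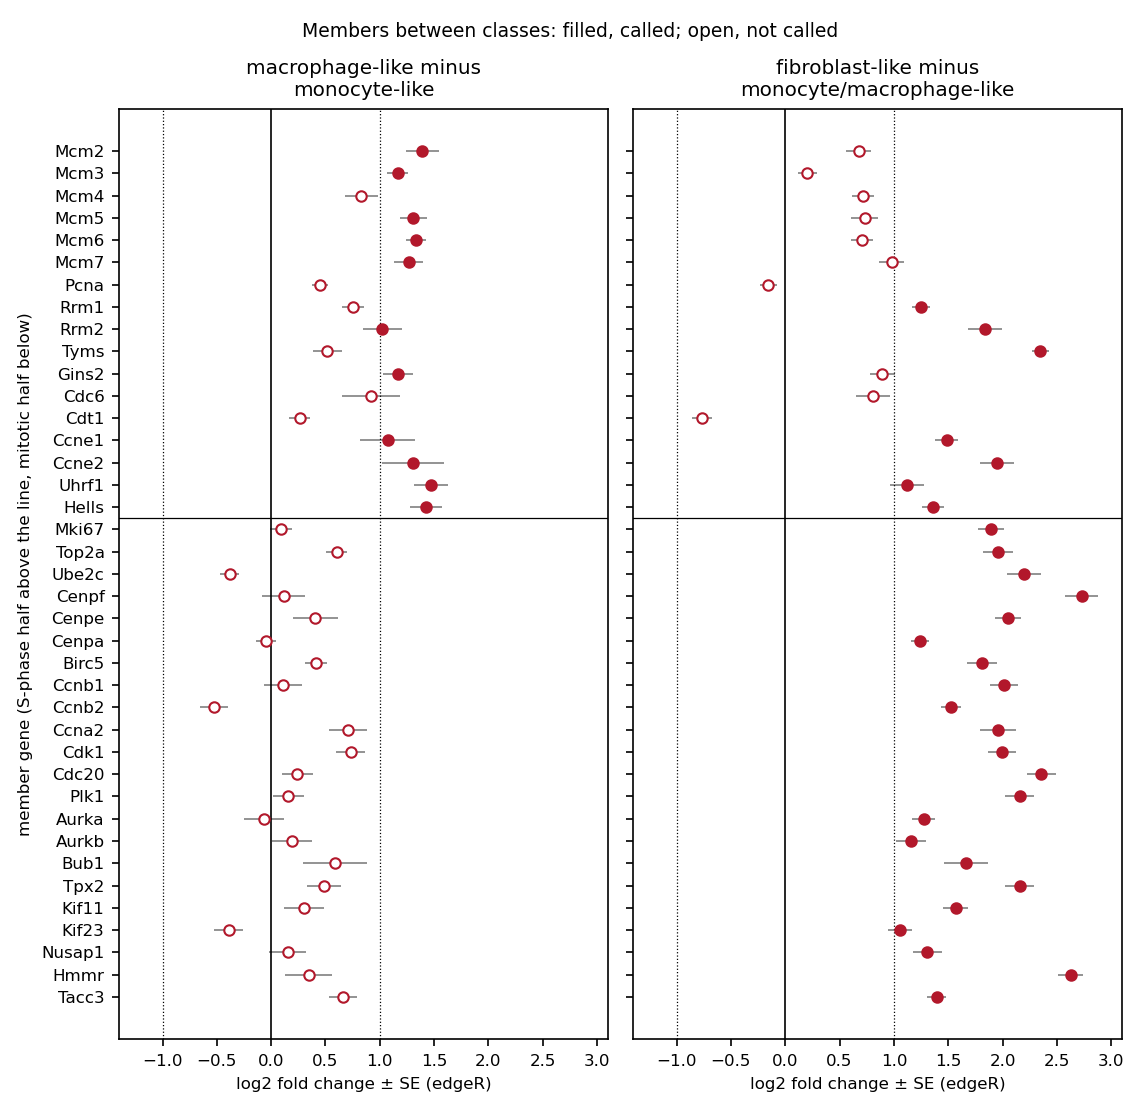
Log2 fold change with its SE (edgeR) for each member in 2 contrasts, with called members filled. In the left panel, macrophage-like against monocyte-like, the filled points are all S-phase members, and in the right panel, fibroblast-like against monocyte/macrophage-like, all 22 mitotic members and 7 S-phase members are filled.

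Fibroblast-like cells were set against all monocyte/macrophage-like cells, which hold the cells of the previous contrast. Every mitotic member was higher in fibroblast-like cells, and fewer S-phase members were. All 22 mitotic members were called higher (median log2 fold change 1.93), and 7 of 17 S-phase members (median 0.89), with none lower. This contrast called 43.3% of all genes tested, 23.8% higher and 19.4% lower, with a median of 0.02.

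Cenpf, a kinetochore protein, was at 32.5, 31.1 and 38.4 CPM in fibroblast-like and 5.17, 7.38 and 4.24 in monocyte/macrophage-like cells, far apart in each library (log2 2.73 ± 0.15, edgeR adjusted p = 2.77e-09). Hmmr, a spindle protein that also binds hyaluronan, followed at 19.4, 18.8 and 18.8 against 3.22, 4.06 and 2.68 (2.63 ± 0.12). Ube2c was at 102, 86.2 and 117 CPM against 23.3, 29.7 and 18.4 (2.20), and its partner Cdc20 changed by 2.36. Mki67 was at 55.8, 48.6 and 50.4 CPM against 14.5, 19.2 and 11.5 (1.89 ± 0.12), with no overlap. The mitotic kinases ranged from Aurkb (1.16) and Aurka (1.27) to Plk1 (2.16). The smallest mitotic change was that of Kif23 (1.05), followed by Aurkb.

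Of the 17 S-phase members 16 had an unadjusted edgeR p under 0.05, and 7 were called. Tyms was at 55.1, 44.5 and 53.6 CPM in fibroblast-like and 11.5, 10.3 and 10.2 in monocyte/macrophage-like cells (log2 2.35 ± 0.08, edgeR adjusted p = 2.01e-11). Rrm2 (1.84), Rrm1 (1.25), Ccne2 (1.95), Ccne1 (1.49), Hells (1.36) and Uhrf1 (1.12) were the other called S-phase members. None of the 6 MCM subunits reached the threshold, with log2 changes from 0.20 for Mcm3 to 0.98 for Mcm7. Cdt1 went the other way, at 9.61, 7.59 and 9.03 CPM in fibroblast-like cells and 16.1, 16.1 and 15.3 in monocyte/macrophage-like cells. Its libraries do not overlap (-0.77 ± 0.09, edgeR adjusted p = 5.81e-06), although the change is under the size threshold. Pcna was at 40.8, 29.7 and 32.6 against 46.4, 40.4 and 35.2 CPM, lower in each library but with overlap (-0.16).

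Further replication genes were higher for 14 of 35 and further mitotic genes for 37 of 44, with none lower. They are represented by Clspn, a replication checkpoint adaptor (log2 2.17), and the mitotic kinase gene Pbk (2.69). The classes also differed in genes that control G1. Ccnd2 was at 209, 186 and 236 CPM in fibroblast-like cells against 14.6, 15.5 and 16.7 (log2 3.84), while Ccnd1 was not called (58.7 and 59.2 CPM on average). Gas1, a growth arrest gene, was 4.45 higher, Cdkn1c, the CDK inhibitor p57, 4.39 higher (55.5 against 2.83 CPM on average), and Btg1, an antiproliferative gene, was lower (-2.10). Rb1, the retinoblastoma gene, was at 8.04, 7.87 and 6.12 CPM against 40.0, 52.8 and 45.2 (-2.56).

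Lining fibroblast-like cells, which face the joint cavity and express Prg4, were set against sublining fibroblast-like cells. Every one of the 39 members had a log2 fold change above 0, from 0.35 to 1.27, but few reached the threshold. Called higher were 2 of 17 S-phase members and 1 of 22 mitotic members, and 0 were lower. Of all genes tested 7.98% were called, 2.58% higher and 5.39% lower. Medians were 0.63 for S-phase members, 0.69 for mitotic members and -0.01 for all genes. The called members were Rrm2 at 41.4, 25.1 and 26.4 CPM against 14.7, 13.0 and 13.2 (log2 1.11 ± 0.11), Cdc6 at 9.63, 5.84 and 7.13 against 3.36, 3.14 and 2.53 (1.27 ± 0.20), and Bub1, a checkpoint kinase, at 8.92, 4.87 and 7.53 against 2.78, 3.54 and 3.15 (1.10 ± 0.23). In all 3 genes each lining library lay above each sublining library. Just under the threshold stood Cdk1 at 63.3, 64.5 and 69.8 CPM against 34.3, 34.8 and 32.8 (0.91 ± 0.08), also without overlap. A stricter gate on the classes gave 13 called members, leaving out replicate 1 gave 2 (Cdc6 and Ube2c), leaving out replicate 2 gave 5 (Pcna, Rrm2, Cdc6, Top2a and Bub1), and thinning gave 2 (Cenpf and Hmmr).

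Inhibitors of the cycle moved in both directions between these layers. Cdkn1c was at 12.4, 9.41 and 14.7 CPM in lining cells and 57.1, 76.2 and 87.2 in sublining cells (log2 -2.63 ± 0.11), and Cdkn1a, the CDK inhibitor p21, at 259, 248 and 322 against 94.7, 79.4 and 110 (1.5 ± 0.06). Ccnd1 was 1.47 higher in lining cells. Of the further lists, 2 of 35 replication genes were higher, among them Gmnn, geminin, which restrains Cdt1 (1.08), and 4 of 44 mitotic genes, among them the motor gene Kif22 (1.72). Lining cells were deeper, at median 14554 to 21508.5 UMIs against 9842 to 13776, and the part of depth was not tested beyond the thinned values above.

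Endothelial cell-like cells were then set against fibroblast-like cells. Of 39 members 2 were called, both lower in endothelial cell-like cells, while 28.6% of all genes tested were called, 12.1% higher and 16.5% lower. Ccne1 was at 5.26, 2.80 and 6.32 CPM against 11.1, 8.36 and 10.1 (log2 -1.33 ± 0.16, edgeR adjusted p = 1.14e-05), and Hmmr at 13.8, 9.03 and 10.3 against 19.4, 18.8 and 18.8 (-1.03 ± 0.12, edgeR adjusted p = 7.76e-06). Neither gene's libraries overlap. Ccne1 alone was called with scaling by total UMIs, without replicate 2 or without replicate 3, and 0 of 34 members tested were called by edgeR after thinning (1 S-phase and 3 mitotic members at an unadjusted p under 0.05). DESeq2, run on the full counts, called Ccne1 and Hmmr. Scaling by total UMIs moved the median of all genes from -0.03 to 0.22, and the members' changes shift with it. Ccne2, the other E-type cyclin, was at 7.77, 5.16 and 5.44 against 8.01, 6.25 and 6.10 CPM (-0.40), lower in each library but with overlap. The D-type cyclins again differed, with Ccnd1 at 306, 284 and 371 CPM in endothelial cell-like and 60.3, 48.9 and 67.0 in fibroblast-like cells (2.20 ± 0.06) and Ccnd2 at 37.3, 44.3 and 53.6 against 209, 186 and 236 (-2.48 ± 0.08). This contrast and that of fibroblast-like with monocyte/macrophage-like cells share the fibroblast-like sums.

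Neutrophil precursor-like cells, which express granule genes such as Ngp and Camp, were set against neutrophil-like cells. Most members that could be tested were higher in the precursors. Of 39 members 34 passed the filter on low counts (Cdc6, Ccne1, Ccne2, Hells and Bub1 did not). Called higher were 11 of 13 S-phase and 20 of 21 mitotic members tested, with 0 lower. A member could pass the filter through its level in the precursors alone, so these shares depend in part on the filter. With no filter on low counts, 12 of 17 S-phase and 21 of 22 mitotic members were called higher, with 0 lower. In this contrast 26.5% of all genes tested were called, 9.1% higher and 17.4% lower. Mki67 was at 90.3, 138 and 64.7 CPM against 7.78, 8.07 and 4.67 (log2 3.80 ± 0.24, edgeR adjusted p = 2.15e-54). Kif11 was at 10.0, 38.6 and 25.9 against 1.56, 2.02 and 1.61 (3.80 ± 0.38), Ube2c changed by 3.6, Rrm2 by 3.45 and Top2a, which untangles DNA, by 3.14.

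The 3 members that were not called are Pcna, Gins2 and Kif23. Kif23 was at 16.1, 40.5 and 19.4 CPM in the precursors and 30.1, 26.2 and 24.3 in neutrophil-like cells (log2 0.14 ± 0.25), and Pcna at 26.1, 29.7 and 6.47 against 30.9, 25.9 and 26.7 (-0.10 ± 0.25). The libraries overlap for both. The precursors numbered 62, 365 and 32 cells, and in replicate 3 their sum was 154513 UMIs, so that 1 UMI stood for 6.47 CPM. Without replicate 2, 21 members were called, and 15 after thinning, where 21 members passed the filter. Neutrophil-like cells had a median of 1574 to 2033.5 UMIs against 4093.5 to 7144 in the precursors.

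Further mitotic genes followed in 34 of 37 tested, among them the motor gene Kif20b (log2 3.89), and further replication genes in 20 of 27, among them Lig1, DNA ligase 1 (2.95). With no filter on low counts, 41 of 44 further mitotic and 19 of 35 further replication genes were higher. Pttg1, securin, which holds back sister separation, was the exception among mitotic genes at 10.0, 21.4 and 51.8 CPM against 85.9, 91.0 and 101 (-2.16 ± 0.23). Cdc25a, a phosphatase that activates CDKs, was 3.80 higher. Cdkn1a (54.0 against 253 CPM on average), Cdkn1b (18.5 against 86.8) and the antiproliferative gene Btg2 were lower in the precursors, by log2 -2.22, -1.95 and -2.78, and Cdkn2c was higher (1.73). Ccnd2 (-1.84) and Lmnb1 (-2.41) were also lower.

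To count cells, each cell was thinned to 1000 UMIs, the lowest total of any barcode, and called positive with 2 or more UMIs from the 39 genes. Neutrophil-like cells, which should hold no dividing cells, were taken as the background. They were positive in 2.90%, 3.0% and 2.86% in replicates 1 to 3 (2.92 ± 0.0717), or in 0.393 ± 0.124% with 3 or more UMIs. Their member UMIs include Kif23 and Pcna, which were not low there, so the background of other classes can differ from theirs. Among classes with at least 20 cells in every library osteoclast-like cells had the highest share, 37.5%, 24.0% and 34.9% of 120, 100 and 83 cells (32.1 ± 7.17). Exact 95% binomial intervals, which cover counting error only, ran from 28.8 to 46.8%, from 16.0 to 33.6% and from 24.8 to 46.2%. Lining fibroblast-like cells followed at 27.1%, 23.0% and 21.1% (23.7 ± 3.11), and their range overlapped that of osteoclast-like cells.

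T cell-like cells were positive in 20.5 ± 2.29%, endothelial cell-like in 18.8 ± 3.49%, neutrophil precursor-like in 18.6 ± 3.98%, pericyte/smooth muscle-like in 16.7 ± 0.665%, fibroblast-like in 16.6 ± 1.57% and sublining fibroblast-like in 14.4 ± 2.46%. The libraries of neighbours in this order overlap. Macrophage-like cells were positive in 7.54%, 7.46% and 5.38% (6.80 ± 1.22) and monocyte-like cells in 4.56%, 4.31% and 3.78% (4.22 ± 0.396), a small step above the background that did not overlap between the 2 classes. With 3 or more UMIs the order of osteoclast-like (23.3 ± 3.90), lining (17.6 ± 2.39), sublining (9.19 ± 1.20), macrophage-like (3.06 ± 0.867), monocyte-like (1.25 ± 0.499) and neutrophil-like cells was the same. Without thinning, the shares were 88.0% for osteoclast-like and 10.4% for neutrophil-like cells. Granulocyte/monocyte progenitor-like cells, with 15, 59 and 6 cells, were positive in 86.7%, 74.6% and 33.3%. Of all 2009 cells with 3 or more member UMIs, 45.3% were fibroblast-like, 10.8% monocyte/macrophage-like and 15.1% unassigned.

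**Figure D4:**
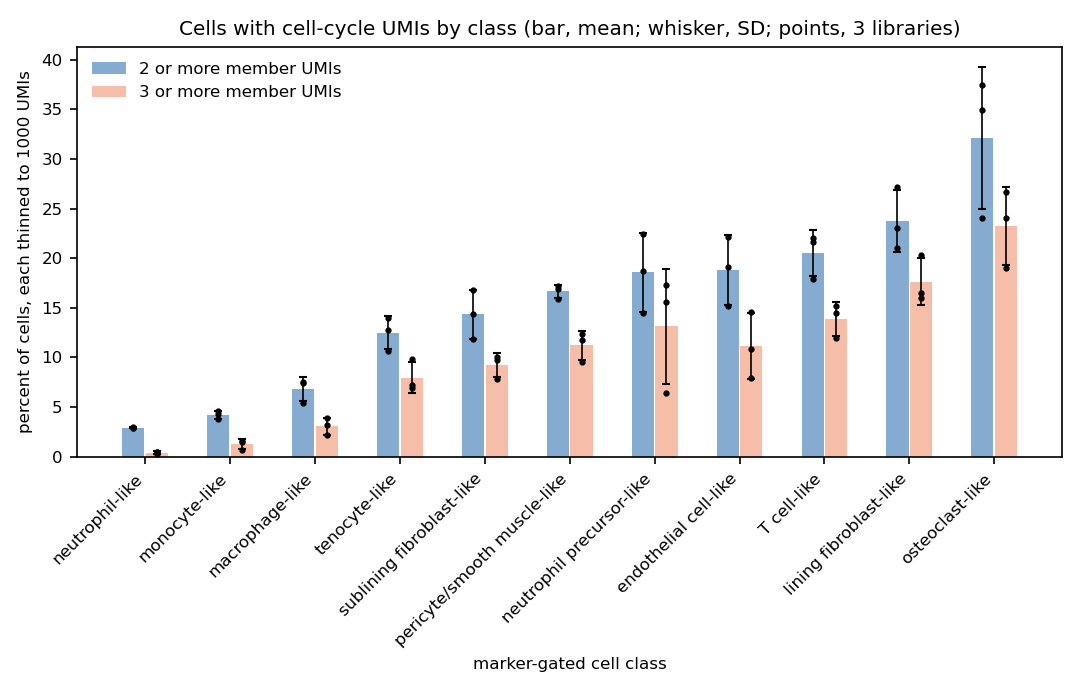
Percent of cells with 2 or more and with 3 or more UMIs from the 39 genes, each cell thinned to 1000 UMIs, by class; bars are means, whiskers SDs and points the 3 libraries. Neutrophil-like cells sit at 2.92% and 0.393%, and osteoclast-like cells at 32.1% and 23.3%.

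Positive cells were also divided by which members they held. In fibroblast-like cells 12.7 ± 0.307% of positive cells held S-phase UMIs alone, 35.8 ± 3.44% mitotic UMIs alone and 51.5 ± 3.13% both. In monocyte/macrophage-like cells these shares were 30.3 ± 0.703%, 24.5 ± 4.68% and 45.2 ± 4.77%. The share with S-phase UMIs alone was thus higher in the phagocytes in every library. Their higher ratio of S-phase to mitotic UMIs comes from the same genes and cells and is no separate support. Exactly 2 member UMIs were held by 343 of 559 positive monocyte/macrophage-like cells and by 450 of 1360 positive fibroblast-like cells. A cell with fewer UMIs can more easily show 1 kind alone, and the background of 2.92% was not removed, so the part of both was not tested. Neutrophil-like positive cells split into 14.6 ± 1.62%, 43.7 ± 2.94% and 41.7 ± 4.48%.

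Genes outside the module were then compared between positive cells and cells with no member UMI of the same class and library, still by thinned counts, with full counts summed. The members chose the cells, so their own levels describe the choice: Mki67, for example, was at 99.6, 151 and 103 CPM in positive monocyte/macrophage-like cells and 7.02, 6.61 and 5.39 in the others, and all 39 members were called. In monocyte/macrophage-like cells, 187, 152 and 220 positive cells were set against 2518, 1891 and 3559. Further replication genes were higher for 30 of 35 and further mitotic genes for 42 of 44, while 4.14% of all genes tested were called, 3.83% higher and 0.312% lower. Clspn (log2 4.32), Nek2, a centrosome kinase (5.06), and Fbxo5, an inhibitor of the anaphase-promoting complex (3.64), were among them or among the regulators. Stmn1, which destabilises microtubules, was at 308, 388 and 285 CPM in positive cells (3.73), Ccnd1 at 141, 154 and 109 (1.51 ± 0.08), and Cdkn2c was 1.86 higher.

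Positive cells were 5.44 ± 0.659% of monocyte/macrophage-like cells, beside the background of 2.92% in neutrophil-like cells. This background was not removed, so the values that follow do not show that dividing and other phagocytes carry the same markers. Ly6c2 was at 275, 363 and 217 CPM in positive cells (log2 0.03 ± 0.07, edgeR adjusted p = 0.853). C1qa was at 2304, 2091 and 3007 CPM (0.28 ± 0.04) and Ccr2 at 263, 224 and 191 (-0.52 ± 0.07), both past the p threshold (edgeR adjusted p = 1.19e-07 and 1.85e-08) and under the size threshold. With 3 or more member UMIs, where positive cells were 2.13% against 0.393% in neutrophil-like cells, the log2 values were 0.014 for Ly6c2, 0.27 for C1qa and -0.81 for Ccr2. Cdkn1a was at 222, 228 and 289 CPM and was not called (-0.17 ± 0.06). Positive cells were deeper, with median 9497, 8752.5 and 6320 UMIs against 7610, 7272 and 6007.

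In fibroblast-like cells, 413, 344 and 603 positive cells were set against 1416, 1457 and 2533 with none. The positive cells were deeper here too, with median 14094, 17873 and 13332 UMIs against 11940.5, 13117 and 9697. Further replication genes were higher for 35 of 35 and further mitotic genes for 43 of 44, with 8.52% of all genes tested called, 4.5% higher and 4.02% lower. Aspm, a spindle-pole protein, was 5.10 higher on the log2 scale, Rad51ap1, a recombination cofactor, 3.88 and Fbxo5 4.34. Cdkn1c was lower in positive cells, at 13.0, 26.5 and 13.0 CPM (-2.19 ± 0.14, edgeR adjusted p = 5.25e-09) against an average of 70.8, and Ccnd1 was higher (1.10 ± 0.06). Cdkn2d was 1.96 higher. Cdkn1c, which was higher in sublining than in lining cells, was thus lower in positive cells, while Cdkn1a was 0.56 higher and not called. Lining cells were positive more often than sublining cells (23.7% against 14.4% on average). The part of this mix of layers in the values of this paragraph was not tested. Col1a1, the main collagen gene, was at 16881, 17730 and 17697 CPM (-0.91 ± 0.06) and Prg4 at 12723, 11569 and 11295 (0.33 ± 0.06), neither past the size threshold.

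Osteoclast-like cells were split in the same way in a comparison added after the members had been seen to be high there and the marker levels of both arms had been seen. Its values are therefore given as a description. There were 45, 24 and 29 positive cells and 51, 58 and 43 with no member UMI. Of all genes tested 7.16% were past the thresholds, 3.92% higher and 3.24% lower. Of 47 further cell-cycle genes tested 42 were higher (15 of 18 replication, 27 of 29 mitotic). The lists hold 35 replication and 44 mitotic genes, and the rest did not pass the filter on low counts. A gene could pass this filter through its level in the positive cells alone. The share of tested genes that were higher therefore depends in part on the filter and does not describe the whole lists. Tk1 was at 115, 141 and 89.9 CPM against 10.8, 4.86 and 3.45, and Asf1b, a histone chaperone, was at 39.5, 45.9 and 28.3 against 3.59, 2.43 and 3.45.

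Of the 6 osteoclast markers 5 were lower in the positive cells, and Calcr was near 0 in both (0.538 and 1.55 CPM on average). Ctsk, the collagen-degrading cathepsin K, was at 1567, 1667 and 3495 CPM in positive cells and 7887, 5681 and 6260 in cells with no member UMI (log2 -1.75 ± 0.17). Acp5, tartrate-resistant acid phosphatase, was at 2529, 2621 and 4749 against 8923, 6678 and 7478 (-1.37 ± 0.14). In both genes replicate 3 of the positive cells was the highest, yet no library overlapped the other arm. Atp6v0d2, of the proton pump (-1.12), and the fusion genes Ocstamp (-1.64) and Dcstamp (-1.82) were lower as well. Nfatc1, the osteoclast transcription factor, is not on the marker list and is named after its values were seen. It was at 387, 441 and 527 CPM in positive cells and 472, 511 and 495 in the others, with overlapping libraries. Mmp9, a neutrophil marker here and also outside the osteoclast list, is likewise named after its values were seen. It was at 705, 1164 and 930 CPM in positive cells and 4757, 3287 and 2973 in the others, without overlap. Ctsk and Acp5 in the positive cells were above the averages of 44.1 and 163 CPM in positive monocyte/macrophage-like cells. Both genes are markers of the osteoclast-like gate, so a higher level there is built into the class. The macrophage markers C1qa (log2 0.09) and Csf1r (-0.47) were not past the thresholds. Median depth was 23950, 23199.5 and 13276 UMIs in positive cells against 14125, 20746 and 11378, and its part was not tested beyond thinning, after which 0 of the further cell-cycle genes passed the filter on low counts.

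**Figure D5:**
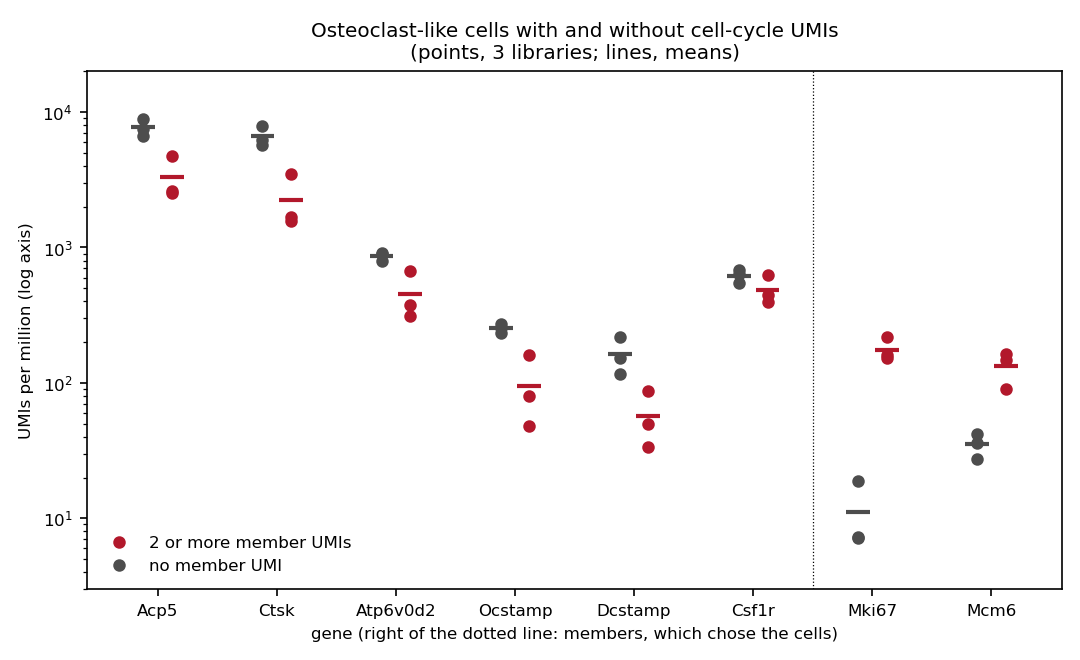
Levels in CPM (log axis) of osteoclast genes and, right of the dotted line, of members in osteoclast-like cells with 2 or more member UMIs and with none; points are the 3 libraries and lines the means. Ctsk and Acp5 points of the positive cells lie below those of the other cells in every library.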

How the data were processed

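The deposited matrices hold raw UMI counts per gene and cell, which the authors made with PISA, per the file headers. GRCm39 and Seurat 3.0.2 with R 3.6 are named, per the submitters' processing notes; no aligner or annotation is named in the sources used here. Barcodes under 200 genes or over 20% mitochondrial UMIs were dropped (82 in all), and 1847 with a Scrublet score of 0.2 or more (scanpy 1.11.5, expected rate 6%) were left out as doublets. A marker was on above its library mean, and a class needed 3 markers on (2 for sub-classes) and a margin of 0.1 to the next. This rule was set after the files were seen, and the members and lists were chosen with earlier results of these data known. Counts were summed per class and library (at least 20 cells). edgeR 4.0.16 (quasi-likelihood test, filterByExpr, TMM, library as a block because both sums come from the same mice, Benjamini-Hochberg adjustment; R 4.3.3) was checked on simulated counts, and DESeq2 1.42.0 was an alternative, as were total scaling, no filter, no block, leaving out each replicate, doublets kept, a margin of 0.25, thinning and 3 or more member UMIs. CPM is per total UMIs and log2 fold changes are TMM-scaled. Members, the largest changes per further list, and fixed cyclin, inhibitor and class marker genes are named. Promoters are RefSeq's on GRCm38.p6, another build than that of the counts, and were used for letters alone.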

Additional observations from a re-analysis of the deposited data

How the results depend on the processing

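The shares of positive cells moved with thinning and with the number of UMIs asked for. Without thinning, the share of cells with 2 or more member UMIs was 88.0% in osteoclast-like, 84.1% in lining, 75.5% in endothelial cell-like, 74.5% in tenocyte-like, 69.3% in fibroblast-like, 68.8% in sublining, 64.9% in pericyte/smooth muscle-like, 59.4% in T cell-like, 57.6% in macrophage-like, 56.6% in NK cell-like, 54.3% in adipocyte-like, 50.9% in monocyte/macrophage-like, 44.4% in monocyte-like, 41.6% in neutrophil precursor-like, 25.5% in erythroid-like and 10.4% in neutrophil-like cells. With 3 or more UMIs at 1000 it was 23.3% in osteoclast-like, 17.6% in lining, 13.8% in T cell-like, 13.1% in neutrophil precursor-like, 11.2% in pericyte/smooth muscle-like, 11.1% in endothelial cell-like, 11.0% in fibroblast-like, 9.19% in sublining, 8.18% in NK cell-like, 7.97% in tenocyte-like, 3.06% in macrophage-like, 2.13% in monocyte/macrophage-like, 1.25% in monocyte-like and 0.393% in neutrophil-like cells. Thinned, the ratio of S-phase to mitotic UMIs was 0.899 in T cell-like, 2.54 in adipocyte-like, 0.736 in endothelial cell-like, 0.466 in pericyte/smooth muscle-like, 0.976 in monocyte-like, 0.591 in sublining and 0.688 in tenocyte-like cells. With doublets kept it was 0.399 in neutrophil precursor-like and 0.375 in pericyte/smooth muscle-like cells, whose positive share was 15.9%. A stricter gate gave ratios of 0.381 in pericyte/smooth muscle-like and 0.600 in sublining cells and a positive share of 2.75% in neutrophil-like cells. Without Pcna and Ube2c, the most abundant members, the ratio was 0.452 in neutrophil-like, 0.373 in pericyte/smooth muscle-like and 0.558 in sublining cells. With free RNA taken off it was 1.40 in monocyte/macrophage-like, 0.657 in neutrophil-like, 0.333 in pericyte/smooth muscle-like and 1.73 in macrophage-like cells. The cause of these changes was not tested.

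Thinning left fewer genes to test and gave 6 members called (11 on full counts) between macrophage-like and monocyte-like cells, 15 (31) between neutrophil precursors and neutrophil-like cells, 0 (2) between endothelial cell-like and fibroblast-like cells, and 32 (72) further genes in positive monocyte/macrophage-like and 0 (42) in positive osteoclast-like cells, where none was left to test. Endothelial cell-like against fibroblast-like cells gave 1 member with total scaling and 1 to 2 without 1 replicate. Lining against sublining gave 13 with the stricter gate and 2 to 5 without 1 replicate. No filter gave 64 further genes in osteoclast-like cells. The fit without the replicate block gave the same counts as the block: 11 members between macrophage-like and monocyte-like cells, 29 between fibroblast-like and monocyte/macrophage-like, 3 between lining and sublining, 2 between endothelial cell-like and fibroblast-like and 31 between neutrophil precursor-like and neutrophil-like cells, and 72, 78 and 42 further genes in positive monocyte/macrophage-like, fibroblast-like and osteoclast-like cells. Osteoclast-like replicate 2 and neutrophil precursor-like replicate 3 had under 20 cells with the stricter gate and were left out there, as was osteoclast-like replicate 2 with 3 or more UMIs.

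Of 2033 values for single genes under an alternative, 1915 kept their direction and side of the threshold, 65 lost and 13 gained a call, and 40 changed sign, all of genes not called in the reported fit. The log2 values that changed sign were, between macrophage-like and monocyte-like cells, Mki67 -0.016 (stricter gate) and Kif23 0.0033 (thinned). Between fibroblast-like and monocyte/macrophage-like cells Ccnd1 was -0.0060 (total scaling), -0.18 (without replicate 3; up to 0.29 without another) and -0.0013 (stricter gate). Between endothelial cell-like and fibroblast-like cells Ccnd3 was -0.027 (no filter) and -0.031 (without replicate 3; up to 0.090 without another), and Cdkn1b -0.0037 (without replicate 3) and -0.41 (thinned). Between neutrophil precursors and neutrophil-like cells Ccnd1 was 0.063 (total scaling), 0.23 (DESeq2), 0.58 (without replicate 2; down to -0.065 without another), 0.58 (doublets kept) and 0.0084 (stricter gate), Kif23 -0.73 (without replicate 2; up to 0.44 without another), and Pcna 0.13 (without replicate 3; down to -0.52 without another), 0.035 (doublets kept) and 0.12 (stricter gate). In positive monocyte/macrophage-like cells Ly6c2 was -0.033 (no filter), -0.095 (without replicate 2; up to 0.11 without another), -0.039 (doublets kept) and -0.018 (thinned), S100a8 -0.041 (no filter), -0.23 (without replicate 1; up to 0.20 without another) and -0.080 (doublets kept), Ccnd3 0.041 (without replicate 2; down to -0.20 without another), Ccnd2 0.25 (doublets kept) and 0.14 (3 or more UMIs), Prg4 0.71 (doublets kept) and Thy1 -0.35 (thinned). In positive fibroblast-like cells C1qa was 0.030 (total scaling), Cdkn1b 0.027 (thinned) and Csf1r 0.19 (thinned). In positive osteoclast-like cells Prg4 was -0.27 (without replicate 1; up to 0.46 without another) and -0.21 (stricter gate), Ccnd3 0.027 (without replicate 2; down to -0.53 without another), 0.091 (stricter gate) and 0.12 (3 or more UMIs), and C1qa -0.37 (without replicate 2) and -0.31 (3 or more UMIs).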
